A study of Mus musculus with 4 samples.

Results

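The genes described here encode the lysosomal proton pump, the vacuolar ATPase (V-ATPase), together with 22 listed hydrolases, activators, lipid carriers and membrane proteins of the lysosome. The V-ATPase genes were taken by symbol, as every gene whose name begins with Atp6v apart from Atp6v0d2, and this gave 19 genes. The 41 genes were among 15608 genes present in either of the deposited tables. The table of the ACE sort held 39 of them and the table of the CD74 sort held 40. Of these, 36 passed a minimum mean level of 5 CPM in each table, namely 14 V-ATPase subunits and all 22 listed genes. CPM here means the authors' normalised reads, scaled so that the libraries of a table average 1000000.

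The study sorted macrophages of the periosteum, the membrane on the outer surface of bone, from wild-type male C57BL/6 mice at postnatal day 28. Every cell was selected as CD45-positive and Cx3cr1-positive with antibodies. The 4 groups were ACE-positive and ACE-negative cells, and CD74-positive and CD74-negative cells, where ACE is the angiotensin-converting enzyme and CD74 is the chaperone of MHC class II, known as the invariant chain. Each group was 1 RNA-seq library from an unstated number of animals, so that no value has a replicate and no difference between groups was tested. The intervals given below are exact 95% intervals for the counting of reads only. Because whole sorted populations were sequenced, fewer cells of a type and less RNA per cell cannot be told apart. The mice and the selection on CD45 and Cx3cr1 were shared by all 4 groups, and the sorts were normalised separately, so each ratio stays within its own sort.

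The V-ATPase is a rotary pump. Its V1 domain faces the cytosol and hydrolyses ATP, and its V0 domain sits in the membrane and carries protons into the lumen. The acid it makes is what the lysosomal hydrolases need to work, and their products leave through carriers and channels in the lysosomal membrane. Macrophages depend on this system to digest what they engulf, and osteoclasts, which share their lineage, place a V-ATPase with dedicated subunits in the plasma membrane to dissolve bone mineral. Transcription factors of the MiT/TFE family, TFEB among them, are known to bind a palindromic element built on CACGTG near the starts of many lysosomal genes.

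The libraries held between 7020232 reads, in CD74-negative cells, and 13282126 reads, in CD74-positive cells, so that 3 reads were worth 0.212 to 0.454 CPM. The gates were visible in the RNA. Ace was at 1209.8 CPM in ACE-positive and 11.6 CPM in ACE-negative cells, and Cd74 at 2158 CPM in CD74-positive and 453 CPM in CD74-negative cells. The gates overlapped in content, since Cd74 was also 6.60-fold higher in ACE-positive than in ACE-negative cells and Ace 3.64-fold higher in CD74-positive than in CD74-negative cells. Ptprc, which encodes CD45, and Cx3cr1 were present in all 4 libraries, with Cx3cr1 at 473 CPM in ACE-positive, 180.2 CPM in ACE-negative, 283 CPM in CD74-positive and 157 CPM in CD74-negative cells. Neutrophil markers summed over 10 genes to 11556 CPM in ACE-positive and 16355 CPM in ACE-negative cells, and to 14207 CPM in CD74-positive and 27751 CPM in CD74-negative cells. Log2 ratios were below 0 for 8 of the 10 in the ACE sort and 9 in the CD74 sort. Csf3r was higher in both positive libraries, with ratios of 1.70 in the ACE sort and 1.58 in the CD74 sort. Ly6g was higher in ACE-positive cells, with a ratio of 1.23. Markers of fibroblasts and bone-forming cells summed to 2707 CPM in ACE-positive and 872 CPM in ACE-negative cells, and 2081 CPM in CD74-positive and 1423 CPM in CD74-negative cells. In the CD74 sort that sum was mostly Col1a1 and Col1a2, at 1102 and 848 CPM in CD74-positive cells, and 5 of the 9 detected markers of the list had log2 ratios below 0, with a median of -0.25. Markers of mast cells and basophils summed to 121 CPM in ACE-positive and 241 CPM in ACE-negative cells, and 778 CPM in CD74-positive and 183 CPM in CD74-negative cells. Erythroid markers summed to 873 CPM in ACE-positive and 448 CPM in ACE-negative cells, and 604 CPM in CD74-positive and 1356 CPM in CD74-negative cells. T and NK cell markers summed to 47.5 CPM in ACE-positive and 90.5 CPM in ACE-negative cells, and 65.3 CPM in CD74-positive and 106 CPM in CD74-negative cells. Of the 4 that passed 5 CPM, 3 had log2 ratios below 0 in each sort. Cd4 went the other way, with ratios of 4.69 in the ACE sort and 7.09 in the CD74 sort. B cell markers summed to 156 CPM in ACE-positive and 84.6 CPM in ACE-negative cells, and 139 CPM in CD74-positive and 191 CPM in CD74-negative cells. In the CD74 sort 3 of the 5 B cell markers had log2 ratios below 0, while Pax5 was 3.35-fold higher in CD74-positive cells. Endothelial markers summed to 113 CPM in ACE-positive and 65.4 CPM in ACE-negative cells, and 107 CPM in CD74-positive and 79.3 CPM in CD74-negative cells. In the CD74 sort 2 of the 4 endothelial markers that passed 5 CPM had log2 ratios below 0. Of 10 macrophage markers, all were detected in every library. In ACE-positive cells 4 (40%) were at least 2-fold higher and 1 (10%), Lyz2, was lower, against 9.29% and 8.86% of all genes. In CD74-positive cells 1 (10%) was higher and 0 were lower, against 9.21% and 7.56% of all genes. The part of these cell types in the results below was not tested.

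The sequences that follow show the longer palindrome TCACGTGA in the promoters of the members that carry it. It is the inner part of the longer element known from lysosomal genes, which has G before it and C after it. RefSeq promoters, 250 bases before to 50 bases after the gene start on the build GRCm38.p6, were found for 34 of the 41 genes. In each 30-base stretch, written 5′ to 3′ on the strand of the gene, the capitals mark the palindrome.
Atp6v0d1, chr8:105566050-105566079, minus strand: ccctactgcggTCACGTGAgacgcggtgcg
Atp6v0e, chr17:26676387-26676416, plus strand: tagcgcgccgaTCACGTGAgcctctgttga
Atp6v1a, chr16:44139373-44139402, minus strand: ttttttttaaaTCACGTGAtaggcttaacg
Gla, chrX:134601215-134601244, minus strand: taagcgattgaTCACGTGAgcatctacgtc
Gla, chrX:134601182-134601211, minus strand: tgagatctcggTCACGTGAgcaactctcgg
Mcoln1, chr8:3500462-3500491, plus strand: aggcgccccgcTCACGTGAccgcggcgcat
The palindrome began 4 bases before the gene start in Atp6v0d1, 2 bases after it in Atp6v0e, 132 bases before it in Atp6v1a, 46 bases before it in Mcoln1, and 228 and 195 bases before it in Gla. These distances run from the RefSeq gene start. The deposited gene coordinates, which start at chr17:26663231 for Atp6v0e, put the palindromes of Atp6v0e, Atp6v1a and Mcoln1 inside the gene. The palindrome was present in 5 of the 34 promoters (14.7%), against 1.12% of the 27025 promoters of all genes. The core CACGTG, which every TCACGTGA contains, was present in 10 of the 34 (29.4%), against 8.09% of all promoters, and added Atp6v0b, Lamp1, Glb1, Gaa and Arsa. The whole element, with G before the palindrome and C after it, was in 0 of the 34, against 0.370% of all promoters. Each of these motifs reads the same on both strands, and a match describes letters only.

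The comparison of each sort asks whether these transcripts differ between the cells that carry the marker and those that do not. In the ACE sort, the V-ATPase transcripts were mostly lower in ACE-positive than in ACE-negative cells, while the listed lysosomal genes were spread around no difference. Of the 14 subunits, 12 had a log2 ratio (positive over negative, on CPM + 1) below 0, with a median of -0.44. The listed genes had a median of 0.12 with 9 of 22 below 0, and the 9655 genes tested had a median of -0.09. The V-ATPase median lay 0.56 below that of the listed genes. Summed over the subunits, V-ATPase transcripts came to 1931 CPM in ACE-positive and 2535 CPM in ACE-negative cells, a ratio of 0.762. The listed genes came to 13631 CPM in ACE-positive and 15000.3 CPM in ACE-negative cells, a ratio of 0.909. A gene was counted at 2-fold where its log2 ratio reached 1 in size, on CPM + 1, and its counting interval excluded 1. Of the 36 members, 0 differed by 2-fold or more, against 18.1% of all genes, 9.29% being higher and 8.86% lower in ACE-positive cells. At 1.5-fold, 1 subunit was higher and 4 were lower, and 3 listed genes were higher and 2 lower, against 18.9% of all genes higher and 23% lower (41.8% in all). The counting interval of the ratio lay below 1 for 11 of 14 subunits and above 1 for 2, while among the listed genes it lay above 1 for 11 of 22 and below 1 for 8. Over all genes it lay above 1 for 34.2% and below 1 for 43.2%.

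The CD74 sort gave a like arrangement. The V-ATPase median was -0.49 with 10 of 14 subunits below 0, the listed median was 0.15 with 8 of 22 below 0, and the median of 9718 genes was -0.03. The V-ATPase median lay 0.65 below the listed one. Summed levels were 1971 CPM in CD74-positive and 2469 CPM in CD74-negative cells for the V-ATPase, and 12719 CPM in CD74-positive and 13139 CPM in CD74-negative cells for the listed genes. At 2-fold, 1 subunit, Atp6v0a1, was higher and 0 members were lower, against 9.21% of all genes higher and 7.56% lower (16.8% in all). At 1.5-fold, 2 subunits were higher and 6 lower, and 3 listed genes were higher and 0 lower, against 20.7% of all genes higher and 21% lower (41.6% in all). The counting interval lay below 1 for 10 subunits and above 1 for 3, and for the listed genes above 1 for 11 and below 1 for 7. Over all genes it lay above 1 for 36.7% and below 1 for 38.4%. The V-ATPase median was below 0, and the listed median above 0, under every alternative scaling, level minimum, pseudocount and centring tried in both sorts.

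**Figure D1:**
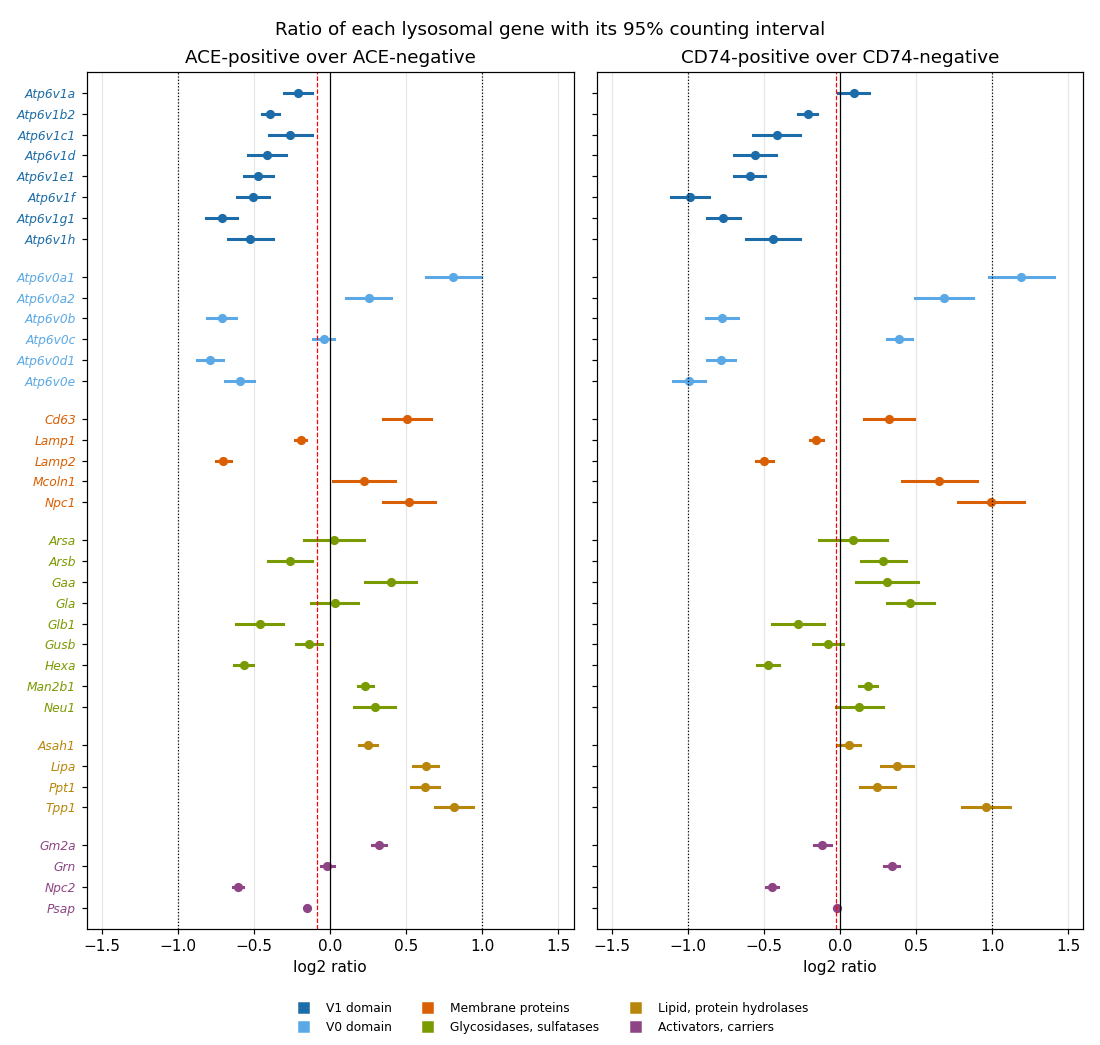
Log2 ratio of each of the 36 members that passed 5 CPM, positive over negative, in the ACE and the CD74 sort, with 95% counting intervals from 1 library per group. Dotted lines mark ratios of 2 in either direction and the red dashed line the median of all genes. Most V-ATPase subunits lie left of 0 in both sorts, Atp6v0a1 lies furthest right among them, and the listed genes fall on both sides.

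Transcript length moved with these ratios over all genes tested, and its part in the V-ATPase ratios was not tested. When all tested genes were put into 20 bins by the length of their principal transcript, the median log2 ratio in the ACE sort was -0.82 in the shortest bin and 0.68 in the longest, and in the CD74 sort -1.01 and 0.83. The median principal transcript was 2060 bases for the V-ATPase, 2871 bases for the listed genes and 3019 bases for all genes tested in the ACE sort. By the deposited gene length, which covers all exons of a gene, the medians were 4356 bases for the V-ATPase, 3930 bases for the listed genes and 4652 bases for all genes. Measured against genes of like deposited length, the V-ATPase median was -0.26 in the ACE sort and -0.20 in the CD74 sort. Measured against genes of like principal transcript length, a centring chosen after the data were seen, the V-ATPase median was -0.04 in the ACE sort and -0.06 in the CD74 sort, with 9 and 8 of 14 subunits below 0. The length-centred values of single genes given below are on this last scale. The listed median on that scale was 0.22 in the ACE sort and 0.10 in the CD74 sort. The gap between V-ATPase and listed genes was then -0.25 in the ACE sort and -0.15 in the CD74 sort.

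**Figure D2:**
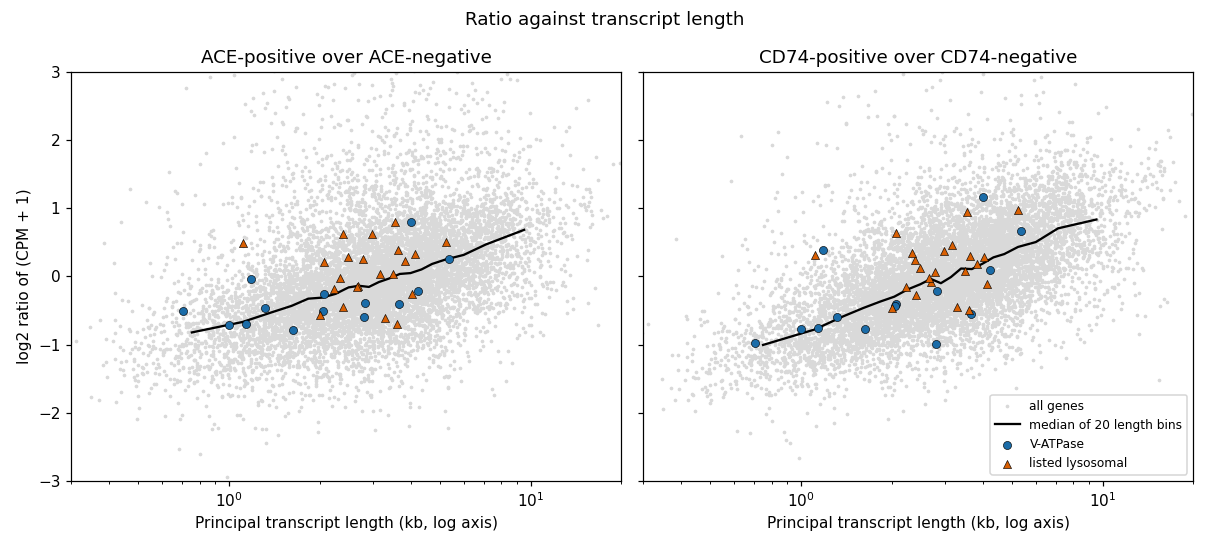
Log2 ratio, positive over negative, against the length of the principal transcript in kb (log axis) for all tested genes in the ACE and the CD74 sort, with V-ATPase and listed members marked. The black line joins the medians of 20 length bins, which run between -0.82 and 0.68 in the ACE sort. V-ATPase subunits lie on both sides of the line, 9 of 14 below it in the ACE sort and 8 of 14 in the CD74 sort.

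The V1 domain was lower throughout the ACE sort. All 8 of its detected subunits had ratios below 1 there, between 0.611 and 0.864, and all 8 counting intervals excluded 1. In the CD74 sort 7 of 8 intervals lay below 1. Atp6v1b2 encodes the B subunit that forms the catalytic head with the A subunit, and had 398 CPM in ACE-positive and 523 CPM in ACE-negative cells, and 445 CPM in CD74-positive and 516 CPM in CD74-negative cells. Its ratios were 0.761 (0.733 to 0.791) in the ACE sort and 0.863 (0.827 to 0.8995) in the CD74 sort. Atp6v1a, which encodes the catalytic A subunit, had 156 CPM in ACE-positive and 180.5 CPM in ACE-negative cells, and 182 CPM in CD74-positive and 171 CPM in CD74-negative cells. It was the V1 gene on different sides in the sorts, with ratios of 0.864 (0.811 to 0.920) and 1.07 (0.993 to 1.14), and in the CD74 sort the counting interval included 1.

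Of the stalk subunits of V1, 3 passed 1.5-fold in at least 1 sort. Atp6v1g1, which encodes the G subunit of the peripheral stalk, had 107 CPM in ACE-positive and 176 CPM in ACE-negative cells, and 112 CPM in CD74-positive and 190.4 CPM in CD74-negative cells. The ratio was 0.611 (0.569 to 0.656) in the ACE sort and 0.587 (0.545 to 0.633) in the CD74 sort. Atp6v1f, which encodes the F subunit of the central stalk, had 110.03 CPM in ACE-positive and 156 CPM in ACE-negative cells, and 77.1 CPM in CD74-positive and 153 CPM in CD74-negative cells. Each positive library was below the negative one of its sort, with ratios of 0.704 (0.655 to 0.757) in the ACE sort and 0.505 (0.464 to 0.551) in the CD74 sort. Atp6v1e1, which encodes the E subunit paired with G, had 134 CPM in ACE-positive and 186 CPM in ACE-negative cells, and 129 CPM in CD74-positive and 195 CPM in CD74-negative cells, and ratios of 0.722 (0.676 to 0.770) and 0.662 (0.616 to 0.712). Atp6v1f and Atp6v1g1 have principal transcripts of 0.703 and 1.14 kb. Against genes of like transcript length their log2 ratios were 0.32 and -0.04 in the ACE sort and 0.03 and 0.02 in the CD74 sort. On that scale Atp6v1e1 stood at 0.06 in the ACE sort and 0.00 in the CD74 sort. Atp6v1f has 1 and Atp6v1g1 has 2 pseudogene copies of at least 95% identity over 200 bases or more. The reads of these genes could be shared with their copies.

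The remaining V1 subunits were lower in both positive libraries and did not reach 1.5-fold. Atp6v1d, which encodes the D subunit of the rotor, had 80.4 CPM in ACE-positive and 107 CPM in ACE-negative cells, and 75.4 CPM in CD74-positive and 111 CPM in CD74-negative cells. Unlike F and G it stayed lower against genes of like length, at -0.44 in the ACE sort and -0.65 in the CD74 sort on the log2 scale. Atp6v1c1 and Atp6v1h encode the C and H subunits, which take part in joining V1 to V0. Atp6v1c1 had 64.5 CPM in ACE-positive and 77.3 CPM in ACE-negative cells, and 63.8 CPM in CD74-positive and 85.2 CPM in CD74-negative cells. Atp6v1h had 54.0 CPM in ACE-positive and 77.6 CPM in ACE-negative cells, and 48.5 CPM in CD74-positive and 65.8 CPM in CD74-negative cells. Their ratios lay between 0.696 and 0.835 over both sorts.

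The V0 domain was the less uniform of the pump's domains. Of its 6 detected subunits, 3 were lower in the positive library of both sorts, 2 were higher in both, and the proton-carrying c subunit was on different sides. Atp6v0d1, which encodes the ubiquitous d subunit that links the ring to the stalk, had 146 CPM in ACE-positive and 252 CPM in ACE-negative cells, and 148 CPM in CD74-positive and 255 CPM in CD74-negative cells. The ratio was 0.580 (0.546 to 0.615) in the ACE sort and 0.582 (0.546 to 0.621) in the CD74 sort, so that the positive library was the lower one in each sort. Atp6v0b, which encodes the c'' subunit of the proton-carrying ring, had 123 CPM in ACE-positive and 201 CPM in ACE-negative cells, and 112 CPM in CD74-positive and 192 CPM in CD74-negative cells, with ratios of 0.611 (0.572 to 0.653) and 0.584 (0.542 to 0.629). Atp6v0e, which encodes the small e subunit, had 134 CPM in ACE-positive and 202 CPM in ACE-negative cells, and 106 CPM in CD74-positive and 210.2 CPM in CD74-negative cells. Its ratios were 0.662 (0.621 to 0.706) in the ACE sort and 0.503 (0.467 to 0.541) in the CD74 sort. Against genes of like transcript length Atp6v0b came to -0.04 and 0.01 on the log2 scale, whereas Atp6v0e remained at -0.43 in the ACE sort and -0.88 in the CD74 sort. Atp6v0d1 lay between, at -0.35 and -0.32.

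Atp6v0c, which encodes the c subunit and was the most abundant V0 transcript per kb of principal transcript, had 295 CPM in ACE-positive and 304 CPM in ACE-negative cells, and 322 CPM in CD74-positive and 246 CPM in CD74-negative cells. The ACE sort did not separate its libraries, with a ratio of 0.971 (0.926 to 1.02), and the CD74 sort put the positive library higher, at 1.31 (1.24 to 1.39). Its transcript is short, and against genes of like length it stood at 0.63 in the ACE sort and 1.17 in the CD74 sort on the log2 scale. Atp6v0c has pseudogene copies of at least 95% identity, so its level is uncertain to that extent.

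The a subunit, which forms the path for protons and decides in which membrane the pump resides, was where subunits were higher in the positive libraries. Atp6v0a1, at chr11:101009452-101063719 of GRCm38, had 57.8 CPM in ACE-positive and 32.9 CPM in ACE-negative cells, and 76.0 CPM in CD74-positive and 33.3 CPM in CD74-negative cells. Each positive library was above the negative one of its sort, with ratios of 1.75 (1.55 to 1.99) in the ACE sort and 2.28 (1.97 to 2.65) in the CD74 sort. Atp6v0a2 had 69.4 CPM in ACE-positive and 58.2 CPM in ACE-negative cells, and 70.2 CPM in CD74-positive and 43.7 CPM in CD74-negative cells. It was 1.19-fold higher in ACE-positive and 1.605-fold higher in CD74-positive cells than in their negative counterparts. With Atp6v1a these have the 3 longest principal transcripts among the detected subunits. Against genes of like length Atp6v0a1 stood at 0.74 and 0.98 on the log2 scale, while Atp6v0a2 came to 0.00 in the ACE sort and 0.24 in the CD74 sort. On that scale Atp6v0a1 in the CD74 sort was below 2-fold.

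Tcirg1, which encodes the a3 form used by lysosomes of macrophages and by the osteoclast border, and Atp6v0d2, the d form of osteoclasts, are outside the symbol rule, and complete these families. Tcirg1 had 303 CPM in ACE-positive and 279 CPM in ACE-negative cells, and 331 CPM in CD74-positive and 229 CPM in CD74-negative cells, a ratio of 1.09 (1.04 to 1.14) in the ACE sort and 1.44 (1.36 to 1.53) in the CD74 sort. Compared per kb of principal transcript, Tcirg1 made up 78.4% of a-subunit transcripts in ACE-positive and 82.7% in ACE-negative cells, and 77.2% in CD74-positive and 82.0% in CD74-negative cells. Atp6v0a1 made up 11.4% in ACE-positive and 7.42% in ACE-negative cells, and 13.5% in CD74-positive and 9.05% in CD74-negative cells. Atp6v0d2 had 40.1 CPM in ACE-positive and 9.44 CPM in ACE-negative cells, and 32.7 CPM in CD74-positive and 6.96 CPM in CD74-negative cells. Its ratios were 4.25 (3.45 to 5.27) in the ACE sort and 4.70 (3.46 to 6.51) in the CD74 sort, larger than that of any member. Its share of d-subunit transcripts per kb was 15.0% in ACE-positive and 2.34% in ACE-negative cells, and 12.4% in CD74-positive and 1.72% in CD74-negative cells, and Atp6v0d1 made up the rest.

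**Figure D3:**
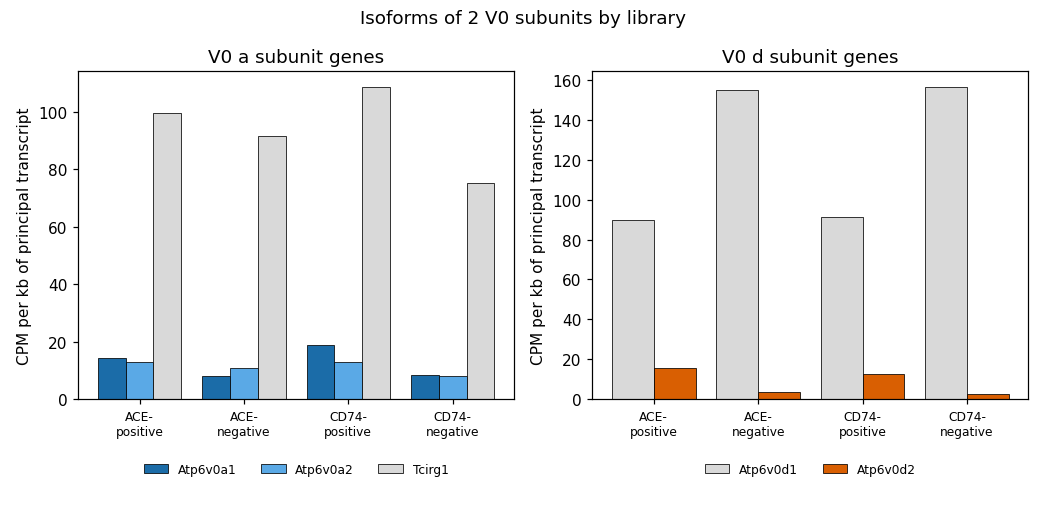
Levels of the a-subunit and d-subunit forms in CPM per kb of principal transcript in each of the 4 libraries, positive left of negative, 1 library per bar. Tcirg1 is the highest a form in every library, and Atp6v0d2 is a small part of the d forms that is larger in both positive libraries.

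Most markers of osteoclasts were higher in the positive library of each sort. Of the 9 osteoclast markers that passed 5 CPM, 8 had log2 ratios above 0 in each sort. The marker below 0 in the ACE sort was Ostm1, with a ratio of 0.765 (0.693 to 0.844). In the CD74 sort it was Mmp9, at 452 CPM in CD74-positive and 503 CPM in CD74-negative cells, with a counting interval below 1. At least 2-fold higher were 4 of the 9 (44.4%) in ACE-positive and 3 (33.3%) in CD74-positive cells. Over all genes the higher shares were 9.29% in the ACE sort and 9.21% in the CD74 sort. In either sort 0 of the markers were at least 2-fold lower, against 8.86% and 7.56% of all genes. Tcirg1 and Atp6v0d2 are themselves on the marker list, and Atp6v0d2 was among those past 2-fold in both sorts. The summed level of the list was 1418 CPM in ACE-positive and 854 CPM in ACE-negative cells, and 1356 CPM in CD74-positive and 1030.3 CPM in CD74-negative cells. Ctsk, the collagen-degrading protease of osteoclasts, had 137 CPM in ACE-positive and 28.5 CPM in ACE-negative cells, and 68.8 CPM in CD74-positive and 34.5 CPM in CD74-negative cells. Calcr, the calcitonin receptor of mature osteoclasts, had 0 reads in ACE-positive cells and 1 read in ACE-negative cells, and Oscar had 22 reads in ACE-positive, 1 read in ACE-negative, 3 reads in CD74-positive and 0 reads in CD74-negative cells. Of the other markers below 5 CPM, Ocstamp had 78 reads in ACE-positive, 8 in ACE-negative, 69 in CD74-positive and 10 in CD74-negative cells. Dcstamp had 32, 5, 31 and 6 reads in the same order. The part of osteoclasts in the subunit ratios was not tested.

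The remaining genes named by the symbol rule were below 5 CPM. Atp6v1g2, the neuronal G form, had 18 reads in ACE-positive and 21 reads in ACE-negative cells, and 55 reads in CD74-positive and 20 reads in CD74-negative cells. Atp6v1c2 had 4 reads in ACE-positive and 0 reads in ACE-negative cells, and 0 reads in CD74-positive and 1 read in CD74-negative cells. Atp6v0e2 was listed in the ACE sort alone, with 0 reads in ACE-positive and 1 read in ACE-negative cells. Atp6v0a4, the kidney and inner ear a form, and Atp6v1fnb, a neighbour of Atp6v1f that is no subunit, were listed in the CD74 sort alone, with 5 and 2 reads in CD74-positive and 0 reads each in CD74-negative cells. At these counts a difference was not detectable.

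The listed genes covered a far wider range of levels than the pump, as the plot of levels by library shows. Per kb of principal transcript, Psap was the highest member in all 4 libraries, at 2684 CPM per kb in ACE-positive and 2983 CPM per kb in ACE-negative cells, and 2470.3 CPM per kb in CD74-positive and 2509.7 CPM per kb in CD74-negative cells. The highest subunit on that scale in ACE-positive cells, Atp6v0c, stood at 249 CPM per kb there, and the lowest detected listed gene, Arsa, at 10.5 CPM per kb.

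Among the 5 listed membrane proteins, Lamp1 and Lamp2 had lower and Npc1, Mcoln1 and Cd63 had higher levels in the positive library of both sorts. Lamp1 and Lamp2 form the sugar coat that lines the lysosomal membrane, and Lamp2 also serves in autophagy. Lamp1 had 962 CPM in ACE-positive and 1099 CPM in ACE-negative cells, and 925 CPM in CD74-positive and 1029.8 CPM in CD74-negative cells. Lamp2, at chrX:38401357-38456454 of GRCm38, had 461 CPM in ACE-positive and 749.8 CPM in ACE-negative cells, and 463 CPM in CD74-positive and 654 CPM in CD74-negative cells. Each positive library was below the negative one of its sort, with ratios of 0.615 (0.594 to 0.636) and 0.708 (0.681 to 0.736) for Lamp2 and of 0.875 (0.853 to 0.897) and 0.899 (0.873 to 0.925) for Lamp1. Once centred by transcript length, Lamp2 stayed at -0.74 and -0.60 on the log2 scale and Lamp1 stood at 0.07 and 0.04, above 0.

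Npc1, at chr18:12189692-12236400 of GRCm38, encodes the membrane protein that exports cholesterol from the lysosome and had 57.5 CPM in ACE-positive and 40.2 CPM in ACE-negative cells, and 65.3 CPM in CD74-positive and 32.8 CPM in CD74-negative cells. Each positive library was above the negative one of its sort, with ratios of 1.43 (1.27 to 1.61) in the ACE sort and 1.99 (1.71 to 2.32) in the CD74 sort. Against genes of like transcript length Npc1 stood at 0.26 in the ACE sort and 0.54 in the CD74 sort on the log2 scale. Npc1 overlaps an exon of Rmc1 on the other strand. The strand setting of the counting is not given, so reads of the pair may be mixed. Mcoln1, the calcium channel TRPML1, had 36.5 CPM in ACE-positive and 31.3 CPM in ACE-negative cells, and 41.9 CPM in CD74-positive and 26.6 CPM in CD74-negative cells, and ratios of 1.17 (1.01 to 1.35) and 1.57 (1.33 to 1.87). Cd63, a tetraspanin of late endosomes and lysosomes, had 66.8 CPM in ACE-positive and 47.0 CPM in ACE-negative cells, and 78.8 CPM in CD74-positive and 63.1 CPM in CD74-negative cells, with ratios of 1.42 (1.27 to 1.59) and 1.25 (1.11 to 1.40). Its principal transcript is 1.11 kb, and against genes of like length it stood above 2-fold, at 1.17 and 1.10 on the log2 scale. A pseudogene copy of Cd63 shares at least 95% of its sequence over 200 bases or more.

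The partner of Npc1 went the other way. Npc2, the soluble carrier that hands cholesterol to Npc1, had 1037 CPM in ACE-positive and 1578 CPM in ACE-negative cells, and 951 CPM in CD74-positive and 1296 CPM in CD74-negative cells. Its ratios were 0.657 (0.642 to 0.672) in the ACE sort and 0.733 (0.714 to 0.754) in the CD74 sort, and against genes of like length it remained at -0.57 and -0.57 on the log2 scale. Psap, the precursor of the saposins that present sphingolipids to their hydrolases, had 7131 CPM in ACE-positive and 7925 CPM in ACE-negative cells, and 6564 CPM in CD74-positive and 6668 CPM in CD74-negative cells, with ratios of 0.8998 (0.891 to 0.908) and 0.984 (0.973 to 0.996). Counting error was small for this gene, whose fewest reads were 44070, in CD74-negative cells. Gm2a, the activator that presents GM2 ganglioside to hexosaminidase A, and Grn, the progranulin that lysosomes cleave into granulins, lay on different sides in the sorts. Gm2a had 765 CPM in ACE-positive and 611 CPM in ACE-negative cells, and 518 CPM in CD74-positive and 561 CPM in CD74-negative cells. Grn had 708 CPM in ACE-positive and 717 CPM in ACE-negative cells, and 829 CPM in CD74-positive and 655 CPM in CD74-negative cells. Gm2a was higher in ACE-positive cells at 1.25 (1.21 to 1.29) and lower in CD74-positive cells at 0.923 (0.887 to 0.960), whereas Grn did not separate the ACE libraries, at 0.988 (0.958 to 1.02), and was higher in CD74-positive cells at 1.27 (1.22 to 1.31).

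The 4 listed hydrolases of lipids and proteins had ratios above 1 in both sorts, all 4 with counting intervals above 1 in the ACE sort and 3 of 4 in the CD74 sort. Tpp1, at chr7:105744811-105752235 of GRCm38, encodes a protease that removes tripeptides from the ends of proteins and had 120.5 CPM in ACE-positive and 68.6 CPM in ACE-negative cells, and 118 CPM in CD74-positive and 60.5 CPM in CD74-negative cells. Its ratios were 1.76 (1.61 to 1.92) in the ACE sort and 1.94 (1.74 to 2.17) in the CD74 sort. Lipa, the acid lipase that frees cholesterol and fatty acids from esters, had 264 CPM in ACE-positive and 170.5 CPM in ACE-negative cells, and 205 CPM in CD74-positive and 158 CPM in CD74-negative cells. Ppt1, which removes palmitate from proteins, had 205 CPM in ACE-positive and 133 CPM in ACE-negative cells, and 161 CPM in CD74-positive and 136 CPM in CD74-negative cells. Their ratios were 1.55 (1.46 to 1.64) and 1.54 (1.45 to 1.65) in the ACE sort, and 1.30 (1.21 to 1.39) and 1.19 (1.10 to 1.28) in the CD74 sort. Asah1, the acid ceramidase, was the most abundant of the 4 per kb and had 403 CPM in ACE-positive and 339 CPM in ACE-negative cells, and 363 CPM in CD74-positive and 348 CPM in CD74-negative cells, with ratios of 1.19 (1.14 to 1.24) and 1.04 (0.992 to 1.10). Centred by transcript length, all 4 stayed above 0 in both sorts, with a median of 0.77 in the ACE sort and 0.42 in the CD74 sort on the log2 scale.

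Of the 9 listed glycosidases and sulfatases, 0 reached 1.5-fold in either sort. Their median log2 ratio was 0.03 in the ACE sort and 0.13 in the CD74 sort. Hexa, the alpha chain of hexosaminidase A, had 298 CPM in ACE-positive and 442 CPM in ACE-negative cells, and 300.5 CPM in CD74-positive and 417 CPM in CD74-negative cells, and the lowest ratios of the group, 0.675 (0.647 to 0.705) and 0.721 (0.687 to 0.756). Glb1, the beta-galactosidase, was lower in both positive libraries as well, at 0.727 (0.653 to 0.809) and 0.826 (0.734 to 0.930). Set against genes of their length, Hexa stood at -0.26 and -0.17 and Glb1 at -0.29 and -0.16 on the log2 scale. Man2b1, the acid alpha-mannosidase, had 588 CPM in ACE-positive and 501 CPM in ACE-negative cells, and 545 CPM in CD74-positive and 480.0 CPM in CD74-negative cells, with ratios of 1.17 (1.13 to 1.22) and 1.14 (1.09 to 1.18). Gaa, which degrades glycogen, had 57.6 CPM in ACE-positive and 43.7 CPM in ACE-negative cells, and 51.8 CPM in CD74-positive and 41.9 CPM in CD74-negative cells, and ratios of 1.32 (1.17 to 1.48) and 1.24 (1.08 to 1.42). Neu1, the sialidase, had 84.2 CPM in ACE-positive and 68.8 CPM in ACE-negative cells, and 79.4 CPM in CD74-positive and 72.6 CPM in CD74-negative cells, and Gusb, the beta-glucuronidase, had 176 CPM in ACE-positive and 194 CPM in ACE-negative cells, and 178 CPM in CD74-positive and 188 CPM in CD74-negative cells. Gla, the alpha-galactosidase, was near 1 in the ACE sort at 1.02 (0.919 to 1.13) and higher in CD74-positive cells at 1.38 (1.24 to 1.54). Arsa, which desulfates sulfatide, had counting intervals that included 1 in both sorts, and Arsb, which desulfates dermatan sulfate, was lower in ACE-positive cells at 0.834 (0.755 to 0.920) and higher in CD74-positive cells at 1.22 (1.10 to 1.35).

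Set side by side, the sorts put most members on the same side. The direction was the same in both for 31 of 36 members (86.1%), against 81.8% of 9532 genes tested in both, so the members stood close to the background. Of the 14 subunits, 10 were lower in both positive libraries and 2, Atp6v0a1 and Atp6v0a2, were higher in both. Of the 22 listed genes, 12 were higher in both and 7 lower in both. Over the 9532 genes tested in both sorts, 4216 were lower in both and 3584 higher in both. The members on opposite sides were Atp6v0c, Atp6v1a, Arsb, Gm2a and Grn.

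The promoter element did not go with one direction. The 3 subunits with TCACGTGA had log2 ratios between -0.78 and -0.21 in the ACE sort, and both listed genes that carry it, Gla and Mcoln1, had 0.03 and 0.22. In the CD74 sort the subunits lay between -0.99 and 0.09, and Gla and Mcoln1 at 0.46 and 0.63.

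Other genes of the pathway included larger ratios than any member had. Among 11 detected partners of the pump outside the symbol rule, 1 was at least 2-fold higher in ACE-positive cells and 2 in CD74-positive cells, and 0 were lower. The higher shares were 9.09% in the ACE sort, against 9.29% of all genes, and 18.2% in the CD74 sort, against 9.21%. The pair in CD74-positive cells were Atp6v0d2 and Wdr7, a protein of the complex that assembles the pump, which had 34.4 CPM in ACE-positive and 19.9 CPM in ACE-negative cells, and 43.3 CPM in CD74-positive and 17.4 CPM in CD74-negative cells. Dmxl1 of the same complex had 69.3 CPM in ACE-positive and 36.4 CPM in ACE-negative cells, and 61.4 CPM in CD74-positive and 35.3 CPM in CD74-negative cells, and Atp6ap1, an accessory subunit, had 384 CPM in ACE-positive and 309 CPM in ACE-negative cells, and 299.8 CPM in CD74-positive and 315 CPM in CD74-negative cells.

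Of other lysosomal hydrolases, 3 of 26 detected were at least 2-fold higher in ACE-positive cells and 1 lower, and 3 of 25 were higher in CD74-positive cells and 0 lower. The higher shares, 11.5% in the ACE sort and 12% in the CD74 sort, stood near the 9.29% and 9.21% of all genes. Among the higher ones in both sorts were Acp2 and Idua. Acp2, the lysosomal acid phosphatase, had 79.9 CPM in ACE-positive and 22.7 CPM in ACE-negative cells, and 62.9 CPM in CD74-positive and 22.4 CPM in CD74-negative cells. Idua, which degrades glycosaminoglycans, had 21.1 CPM in ACE-positive and 7.60 CPM in ACE-negative cells, and 22.5 CPM in CD74-positive and 8.78 CPM in CD74-negative cells. The lower gene was Galns, a lysosomal sulfatase, at a ratio of 0.465 (0.421 to 0.514) in the ACE sort and 0.754 (0.688 to 0.827) in the CD74 sort. Plbd1, a phospholipase B-like protein, had 864 CPM in ACE-positive and 549 CPM in ACE-negative cells, and 647 CPM in CD74-positive and 549.6 CPM in CD74-negative cells.

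Other membrane proteins of the lysosome had a median log2 ratio of 0.46 over 20 genes in the ACE sort and 0.37 over 19 genes in the CD74 sort. Of them 5% in the ACE sort and 5.26% in the CD74 sort were at least 2-fold higher, against 9.29% and 9.21% of all genes. That was 1 gene in each sort, and 0 were lower. In the ACE sort it was Slc11a1, the metal transporter NRAMP1 of phagocytes, which had 239.5 CPM in ACE-positive and 73.9 CPM in ACE-negative cells, and 144 CPM in CD74-positive and 77.9 CPM in CD74-negative cells. In the CD74 sort it was Slc29a3, a nucleoside transporter, which had 116 CPM in ACE-positive and 88.1 CPM in ACE-negative cells, and 167 CPM in CD74-positive and 68.1 CPM in CD74-negative cells. Tpcn2, a lysosomal cation channel, had 28.7 CPM in ACE-positive and 13.9 CPM in ACE-negative cells, and 27.5 CPM in CD74-positive and 19.1 CPM in CD74-negative cells, which in the ACE sort was just under 2-fold once 1 CPM was added to both levels. Laptm5, a lysosomal membrane protein of blood cells, had 1751 CPM in ACE-positive and 1242 CPM in ACE-negative cells, and 1420.4 CPM in CD74-positive and 1175 CPM in CD74-negative cells. Cd68, which is also on the macrophage marker list, had 569 CPM in ACE-positive and 307 CPM in ACE-negative cells, and 402 CPM in CD74-positive and 312 CPM in CD74-negative cells.

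Of 10 genes that sort hydrolases to the lysosome, 1 (10%) was at least 2-fold higher in each sort and 0 were lower. Over all genes the higher shares were 9.29% in the ACE sort and 9.21% in the CD74 sort. The gene past 2-fold was Igf2r in both sorts. Against genes of like transcript length Igf2r stood at 0.66 in the ACE sort and 1.19 in the CD74 sort on the log2 scale. On that scale it was below 2-fold in the ACE sort. It encodes the large mannose 6-phosphate receptor and had 25.3 CPM in ACE-positive and 9.36 CPM in ACE-negative cells, and 28.3 CPM in CD74-positive and 6.20 CPM in CD74-negative cells, with ratios of 2.70 (2.16 to 3.39) in the ACE sort and 4.56 (3.30 to 6.46) in the CD74 sort. M6pr, the small receptor for the same tag, had 411 CPM in ACE-positive and 438 CPM in ACE-negative cells, and 406 CPM in CD74-positive and 406 CPM in CD74-negative cells. Sort1, which carries progranulin among other cargo, had 184 CPM in ACE-positive and 178 CPM in ACE-negative cells, and 262 CPM in CD74-positive and 149 CPM in CD74-negative cells, and Gga3, a sorting adaptor, had 47.8 CPM in ACE-positive and 29.7 CPM in ACE-negative cells, and 53.7 CPM in CD74-positive and 37.5 CPM in CD74-negative cells.

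Of 14 detected regulators of the lysosome, 0 were at least 2-fold higher and 2 lower in ACE-positive cells. In CD74-positive cells 1 was higher and 2 were lower. The lower share was 14.3% in each sort, against 8.86% of all genes in the ACE sort and 7.56% in the CD74 sort. The higher shares were 0% in the ACE sort and 7.14% in the CD74 sort, against 9.29% and 9.21% of all genes. Lamtor4, a subunit of the Ragulator that anchors mTORC1 to the lysosome, had 76.2 CPM in ACE-positive and 187 CPM in ACE-negative cells, and 73.6 CPM in CD74-positive and 184 CPM in CD74-negative cells, Lamtor5 of the same complex had a ratio of 0.460 (0.413 to 0.513) in the CD74 sort, and Lamtor1, its membrane anchor, had 109 CPM in ACE-positive and 168 CPM in ACE-negative cells, and 104 CPM in CD74-positive and 178 CPM in CD74-negative cells. Relative to transcripts of their own length, Lamtor1 came to 0.05 and 0.01 on the log2 scale, and Lamtor4 to -0.46 and -0.31. Tfec, of the MiT/TFE family, was lower in ACE-positive cells at 0.433 (0.372 to 0.504). Fnip2, which acts with folliculin on that family, was higher in CD74-positive cells at 2.59 (2.11 to 3.20). Tfeb itself, named after its values were seen, had 92.0 CPM in ACE-positive and 71.4 CPM in ACE-negative cells, and 70.7 CPM in CD74-positive and 73.7 CPM in CD74-negative cells.

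**Figure D4:**
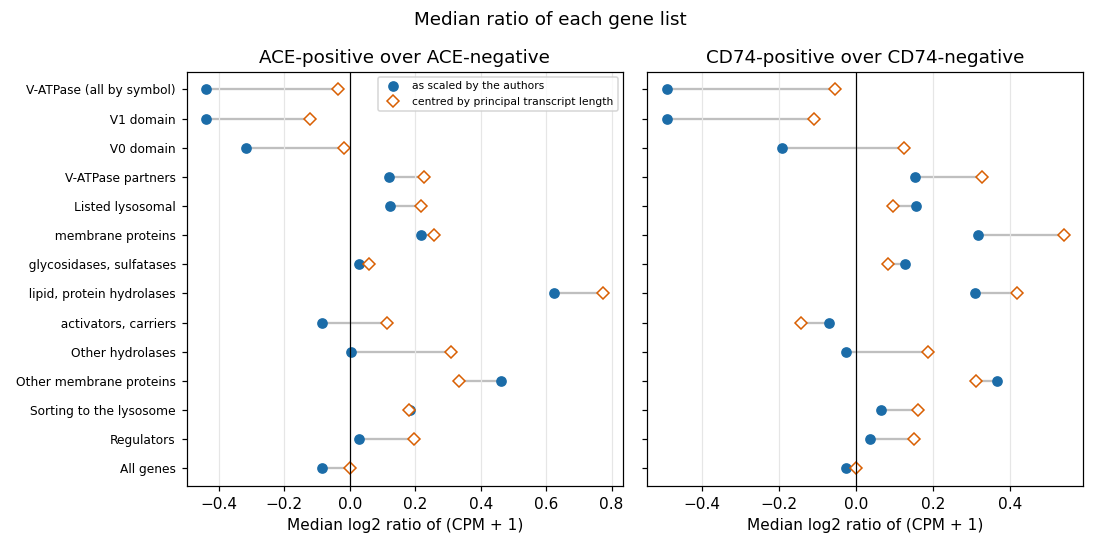
Median log2 ratio, positive over negative, of the member lists and the other lysosomal lists in each sort, as scaled (filled circles) and against genes of like principal transcript length (open diamonds). The V-ATPase lies at -0.44 in the ACE and -0.49 in the CD74 sort as scaled and near 0 against genes of like length.

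In all, 15 of the 41 members overlap an exon on the other strand and 2 an exon on the same strand, and 4 have a near-identical pseudogene copy. The longest overlap was that of Arsb, at 1948 bases.

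The authors' deposited table gave an adjusted p-value of 1 to each of the 36 detected members in both sorts. The lowest unadjusted p-value among them in the authors' deposited table was 0.330 in the ACE sort, for Tpp1, and 0.177 in the CD74 sort, for Atp6v0a1. How a p-value was obtained from 1 library per group is not given in the sources used here.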

How the data were processed

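RNA was sequenced from 4 sorted populations, 1 library each, from Trizol extracts made into Illumina TruSeq libraries, per the labels' protocols. The submitters' processing notes name HISAT2 and GRCm38, while the gene counter, its strand setting and the annotation are unstated. The authors deposited a table per sort that holds, per the file headers, a normalised signal column for each library, a fold (ratio) of positive over negative, the log2 of that fold, and the p-value with its adjusted form. The columns of the CD74 table were assigned from the table's name and header, since its samples' labels name another file. Further per-library columns numbered 0.

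The deposited signal was a whole number of reads times 1 step per library for 100% of values, within a tolerance of 0.001 reads. CPM are the deposited values scaled so that the libraries of a table average 1000000, with the authors' size factors kept. Log2 ratios used a pseudocount of 1 CPM, and genes needed a mean of 5 CPM. A gene was counted as different where its log2 ratio reached a 2-fold (also a 1.5-fold) size, with a 95% exact Clopper-Pearson counting interval that excluded 1. PCR duplicates are not marked, so intervals cover counting error only. With 1 library per group, edgeR's quasi-likelihood test and DESeq2 had no residual degrees of freedom. edgeR 4.0.16 and DESeq2 1.42.0 served for scaling factors only, in R 4.3.3, and the rest was done in Python 3.11.15. The call rule was run on simulated data with 200 changed genes per sort. The simulated reads held counting error only, and the planted changes were larger than the 2-fold cut. That run therefore says nothing of variation between libraries or of smaller differences. Principal transcript lengths came from GENCODE M21, which matched 99.8% of the identifiers, and copies were searched with blastn 2.17.0.

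The members and gene lists were chosen with earlier results of these data known. Members were described in full where they passed a ratio of 1.5, led their role list per kb or had at most 3 reads in a library. From other lists the top 2 genes by mean and the top 2 by ratio were named, with any gene past 2-fold; other genes were chosen after their values were seen. Some genes that this rule names are not reported here. The lists were those of pump partners, other hydrolases, other membrane proteins, hydrolase sorting, regulators, and markers of macrophages, osteoclasts, neutrophils, fibroblasts and bone-forming cells, and mast, erythroid, T and NK, B and endothelial cells. Alternatives covered scaling, pseudocount, level minimum, ratio, and centring by gene length or GC content.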

Additional observations from a re-analysis of the deposited data

How the results depend on the processing

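No paired analysis was possible because each group holds 1 library, and for the same reason no replicate could be left out. Of 12 planned and 2 added alternatives, 0 reversed Atp6v0a1 in the CD74 sort, the one member past 2-fold. Members past 1.5-fold did move to the other side of 0 under a length centring: Atp6v1f to 0.03 and Atp6v0b to 0.01 in the CD74 sort, and Atp6v1g1 to 0.01 in the ACE sort and 0.17 in the CD74 sort. Centring by principal transcript length, and a V-ATPase list with Atp6v0d2 and Tcirg1, were chosen after seeing the data. Plain totals moved the median of all genes to 0.05 in the ACE sort and 0.15 in the CD74 sort.

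The V-ATPase median of the ACE sort was -0.30 with plain totals, -0.26 centred by gene length, -0.32 centred by GC content and -0.037 centred by principal transcript length. That of the CD74 sort was -0.31 with plain totals, -0.31 with no level minimum, -0.20 centred by gene length and -0.056 centred by principal transcript length. The listed median was 0.26 in the ACE sort and 0.33 in the CD74 sort with plain totals. The V-ATPase median minus the listed median was -0.25 in the ACE sort and -0.15 in the CD74 sort centred by principal transcript length, and -0.43 in the CD74 sort centred by gene length. The construction of these centrings removes what genes of like length share.

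For V-ATPase genes called higher, a ratio of 1.5 gave 1 in the ACE sort and 2 in the CD74 sort, the list with Atp6v0d2 and Tcirg1 gave 1 in the ACE sort and 2 in the CD74 sort, and centring by gene length gave 0 in the CD74 sort. Centring by principal transcript length left Atp6v0a1 just under 2-fold, at 0.98 on the log2 scale, and put Atp6v0c over it, at 1.17. For V-ATPase genes called lower, a ratio of 1.5 gave 4 in the ACE sort and 6 in the CD74 sort, and upper quartile scaling gave 2 in the CD74 sort. For listed genes called higher, a ratio of 1.5 gave 3 in each sort, plain totals and totals without the top 100 genes gave 2 in the CD74 sort, and centring by principal transcript length gave 1 in each sort. For listed genes called lower in the ACE sort, a ratio of 1.5 gave 2.

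For all genes called higher in the ACE sort, there were 1498 with no level minimum, 1400 at 1 CPM, 559 at 20 CPM and 1821 at a ratio of 1.5. In the CD74 sort there were 595 at 20 CPM, 2007 at a ratio of 1.5 and 521 centred by principal transcript length. Called lower in the ACE sort were 565 with plain totals, 2218 at a ratio of 1.5, 467 centred by gene length and 407 centred by principal transcript length. Called lower in the CD74 sort were 434 with plain totals, 2037 at a ratio of 1.5, 399 centred by gene length and 297 centred by principal transcript length. The share of calls that were higher was 51.2% in the ACE sort and 54.9% in the CD74 sort, and with plain totals 67.2% in the ACE sort and 74.8% in the CD74 sort. The cause of these shifts in counts was not tested. Counting alone limits members of under 100 reads, while the lack of replicates limits all of them.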
